A study of Mus musculus with 14 samples.

Results

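Scd2, Fasn and Mid1ip1 are genes of fatty acid synthesis and desaturation. They were taken as the probes whose gene symbol in the platform annotation is one of these names. The 3 genes were chosen with earlier results of these data known. Of the 10012 probes of the array, 4 met this rule, 1 each for Scd2 and Mid1ip1 and 2 for Fasn (probes 233 and 10376), so 3 genes of the 8841 with a named probe. Gene expression was measured in primary mouse macrophages on 14 one-colour microarrays hybridised with biotin-labelled cRNA, 2 for each of 7 groups. All groups were macrophages elicited with thioglycollate, which recruits these cells to the peritoneal cavity, in C57BL/6 female mice aged 6 weeks. One group received GW3965 together with LPS, one received GW7845 with LPS, and one received LPS alone. In the same way, one received GW3965 with poly(I:C), one GW7845 with poly(I:C) and one poly(I:C) alone, and the last was untreated. GW3965 is a synthetic agonist of the liver X receptors (LXRs) and GW7845 is a synthetic agonist of PPARγ. LPS, from the outer membrane of bacteria, acts through TLR4, and poly(I:C), written PolyIC in most titles, is a double-stranded RNA that acts through TLR3. The series title names the repression of Toll-like receptor responses by these nuclear receptors. There was no group with an agonist alone, so each agonist effect is a difference between stimulated cells. The title of 1 array spells GW3965 with a space. The sources used here give no doses or treatment times, and they do not say if a replicate pooled animals.

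LXRs are nuclear receptors that bind oxidised forms of cholesterol, pair with the retinoid X receptors and switch on genes of cholesterol efflux and of fatty acid synthesis. Part of their effect on fatty acid synthesis runs through SREBP-1c, a transcription factor made from Srebf1 that itself binds the promoters of lipogenic genes. Fasn encodes fatty acid synthase, which builds palmitate from acetyl-CoA and malonyl-CoA. Mid1ip1 encodes a small protein, related to Thrsp, that promotes the polymerisation and activity of acetyl-CoA carboxylase, the enzyme that makes malonyl-CoA. Scd2 encodes a stearoyl-CoA desaturase, which puts the first double bond into palmitate and stearate.

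The stretch of 250 bases before the transcript start is shown for Fasn and Mid1ip1. Scd2 also moved with GW3965, as described below, but the reference used here held no such window for it. The sequences are from RefSeq on build GRCm38.p6, read 5′ to 3′ on the strand of the gene. The Fasn window is chr11:120824548-120824797 on the minus strand and lies within the annotated span of the gene (chr11:120805958-120825166). The Mid1ip1 window is chrX:10717115-10717364 on the plus strand, and the gene spans chrX:10717365-10719702. Scd2 spans chr19:44293676-44306864. Capitals mark matches, on either strand, to ATCACCC (the core of an SREBP site), CCAAT (the site of NF-Y, a common partner of SREBP) and GGGCGG (the GC box that Sp1 binds).

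Fasn: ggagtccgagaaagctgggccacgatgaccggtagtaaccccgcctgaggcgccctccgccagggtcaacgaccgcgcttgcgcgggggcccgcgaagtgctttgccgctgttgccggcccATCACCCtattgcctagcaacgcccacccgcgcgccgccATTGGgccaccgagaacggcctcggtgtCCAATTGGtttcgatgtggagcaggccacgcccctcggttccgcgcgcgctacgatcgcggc
Mid1ip1: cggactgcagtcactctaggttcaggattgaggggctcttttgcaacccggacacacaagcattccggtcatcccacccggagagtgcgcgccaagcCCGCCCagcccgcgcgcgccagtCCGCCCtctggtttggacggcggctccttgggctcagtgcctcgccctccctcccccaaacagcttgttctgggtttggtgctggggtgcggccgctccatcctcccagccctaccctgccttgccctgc

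In the Fasn window the ATCACCC match begins 129 bases before the start. The 3 CCAAT matches begin 90, 62 and 59 bases before it, the first and last of them on the opposite strand, and the last 2 overlap. In the Mid1ip1 window both GGGCGG matches lie on the opposite strand, 153 and 130 bases before the start. Neither window held the E-box CACGTG, the nuclear receptor half-site AGGTCA or the spaced pair of half-sites known as the LXR element. Among 32851 RefSeq windows of the same length, 2.28% held ATCACCC, 33.8% CCAAT, 32.7% GGGCGG, 6.02% CACGTG, 14% AGGTCA and 0.067% the LXR element. A match describes these letters and is not evidence that a factor binds there.

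The deposited intensities were on a scale on which the median of each array was 1, so a log2 intensity of 0 is the median probe. Values of different probes cannot be set against each other. The arrays fell into 2 sets of 7 by their 10th percentile of intensity, called set A and set B here, with 1 array of each group in each set. Set A held replicate 1 of every group except GW7845 with LPS, whose replicate 2 was in set A. Comparisons were fitted in limma over all 14 arrays, once without a block and once with the set as a block (the array-set fit), which gives the same fold changes. Adjusted p-values are those of Benjamini and Hochberg over 9584 tested probes, and a probe was called where this was under 0.05. Standard errors (SE) and 95% intervals are those of the fit without the block. Statements that the arrays of groups were apart or did not overlap are descriptions. With 2 arrays a group, unrelated probes can also be apart, and their share over all probes is not given here. Spearman correlations between the 2 arrays of a group were 0.930 to 0.966. Replicate 1 of GW3965 with LPS stood apart, with 30 probes at least 4-fold below the 5 other stimulated arrays of its set. Replicate 1 of GW7845 with poly(I:C) also stood apart, with 28 probes at least 4-fold above those of its set and 9 below. By the same measure within set B, LPS replicate 2 had 22 probes above and 0 below. GW7845 with LPS replicate 1 had 16 above and 3 below. Of 12 macrophage markers, 9 were measured. Lyz2 and Ctss had log2 intensities of at least 9.96 on every array, while Fcgr1 lay between -3.87, the floor, and -1.53. Summed over the markers measured, intensities were 2280 to 4833 for macrophages, 0.292 to 2.24 for adipocytes (5 of 10) and 0.456 to 2.12 for mesothelium (5 of 7). They were 10.4 to 22.3 for B cells (5 of 7), 7.74 to 12.3 for fibroblasts (4 of 5), 10.6 to 18.9 for mast cells and eosinophils (6 of 6) and 2.32 to 6.07 for T and NK cells (6 of 8). Such sums follow the brightest probe of a list and compare arrays, not cell types. In bulk RNA, fewer cells of a type and less RNA per cell cannot be told apart.

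Scd2, the desaturase, had the largest rise of all tested probes with GW3965, under LPS and under poly(I:C) alike. Its log2 intensity was 4.93 and 4.48 on the 2 arrays of GW3965 with LPS, against 0.78 and 1.22 on those of LPS alone. With GW3965 and poly(I:C) it was 5.25 and 4.31, against 0.54 and 1.13 with poly(I:C) alone. The groups did not overlap under either stimulus, and the 4 arrays with GW3965 were the highest of all 14. The log2 fold change was 3.71 (SE 0.69, 95% interval 2.23 to 5.19), a 13.1-fold difference, for GW3965 with LPS against LPS. For GW3965 with poly(I:C) against poly(I:C) it was 3.95 (SE 0.69, 95% interval 2.47 to 5.43), a 15.4-fold difference. Neither was called without the block (limma, adjusted p = 0.113 under LPS and 0.177 under poly(I:C)), and both were called in the array-set fit (adjusted p = 0.0256 and 0.0356). Over both stimuli together, the change was 3.83 (SE 0.49), called in both fits (adjusted p = 0.00454 without the block and 0.000789 with it). Within set A this difference was 4.43, and within set B it was 3.22.

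Fasn, the synthase, was also higher with GW3965 by probe 233. Its log2 intensity was 4.06 and 3.77 with GW3965 and LPS, against 1.84 and 1.92 with LPS alone. With GW3965 and poly(I:C) it was 4.02 and 4.04, against 2.54 and 2.01 with poly(I:C) alone. Again the groups were apart, and no array without GW3965 was above 2.74. The log2 fold change under LPS was 2.03 (SE 0.44, 95% interval 1.09 to 2.97), or 4.10-fold, with adjusted p = 0.237 in limma without the block and 0.0446 in the array-set fit. Under poly(I:C) it was 1.75 (SE 0.44, 95% interval 0.81 to 2.69), or 3.37-fold, and this missed the threshold in both fits (adjusted p = 0.929 and 0.208). Pooled over the stimuli it was 1.89 (SE 0.31), with 1.85 in set A and 1.94 in set B, and was called in both fits (adjusted p = 0.0247 and 0.00451).

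Probe 10376 of Fasn lay near background, above the 20th percentile of its array on 8 of 14 arrays. Its log2 intensity was -0.40 and -1.23 with GW3965 and LPS, against -1.93 and -2.76 with LPS alone. With GW3965 and poly(I:C) it was -1.54 and -2.12, against -2.39 and -3.64 with poly(I:C) alone. The arrays with GW3965 were above their controls at this probe too. The log2 fold changes were 1.53 (SE 0.79) under LPS and 1.18 (SE 0.79) under poly(I:C), and the pooled value was 1.35 (SE 0.56). None of these was called in limma, and the pooled adjusted p was 0.952 without the block and 0.149 with it. The pooled Fasn change was thus 1.35 by this probe and 1.89 by probe 233, and whether the probes differ was not tested. Which part of the Fasn transcript each probe covers was not known here.

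Mid1ip1, the partner of acetyl-CoA carboxylase, had log2 intensities of 6.02 and 5.57 with GW3965 and LPS, against 4.34 and 3.73 with LPS alone. With GW3965 and poly(I:C) it had 5.84 and 5.72, against 4.39 and 3.70 with poly(I:C) alone. The lower array with GW3965 was above the higher array without it under each stimulus. The log2 fold change was 1.76 (SE 0.41, 95% interval 0.88 to 2.63), or 3.38-fold, under LPS and 1.74 (SE 0.41, 95% interval 0.86 to 2.61), or 3.33-fold, under poly(I:C). Both were called with the array set as a block (limma, adjusted p = 0.00678 and 0.0154), and neither was without it (adjusted p = 0.307 and 0.863). The pooled change was 1.75 (SE 0.29), with 1.56 in set A and 1.93 in set B, and was called in both fits (adjusted p = 0.0247 and 0.000317).

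**Figure D1:**
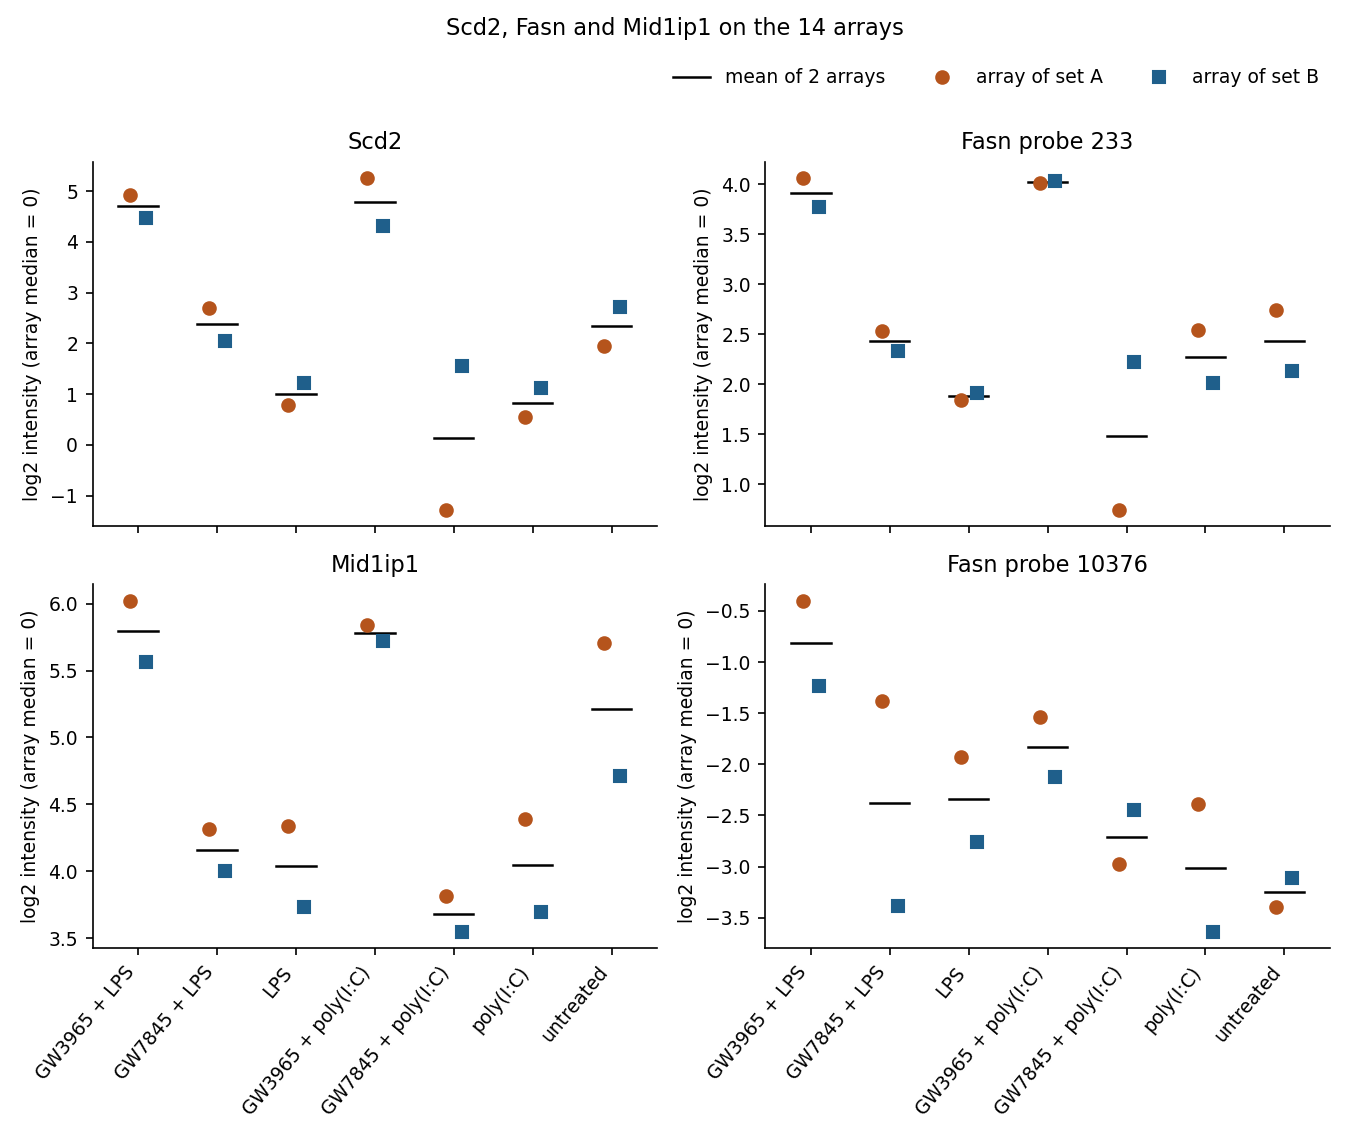
Log2 intensity of the 4 probes (vertical axis, array median at 0, a separate scale for each probe) in the 7 groups (horizontal axis). Each point is 1 array, circles for set A and squares for set B, and each bar is the mean of the 2 arrays. For Scd2 and Fasn probe 233 the 4 arrays with GW3965 lie above the 10 others, while for Mid1ip1 one untreated array, at 5.71, reaches their range.

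Counted over the 4 probes, GW3965 with LPS against LPS gave 0 calls without the block, where all 4 had positive fold changes and 3 had an unadjusted p under 0.05. The array-set fit called 3 of the 4. Over all tested probes, 0.0313% were called without the block in that comparison and 0.407% in the array-set fit. For GW3965 with poly(I:C) against poly(I:C), 0 of the 4 were called without the block (3 at an unadjusted p under 0.05) and 2 in the array-set fit, against 0.0104% and 0.073% of all probes. Pooled over the stimuli, 3 of the 4 were called in either fit, against 0.198% of all probes without the block and 1.15% with it. Ranked by fold change among the 9584 probes, the pooled GW3965 difference put Scd2 at 1, Fasn probe 233 at 8, Mid1ip1 at 11 and Fasn probe 10376 at 27. Because the 3 genes were chosen with earlier results of these data known, these counts and ranks are descriptions and not independent support.

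The pooled calls of the array-set fit were kept for Scd2, Fasn probe 233 and Mid1ip1 whichever of the 14 arrays was left out. Without the block, Scd2 lost its pooled call without replicate 1 of GW3965 with poly(I:C) (limma, adjusted p = 0.0523). Fasn probe 233 and Mid1ip1 kept theirs without either array of GW7845 with poly(I:C) or of untreated cells, and lost it without any of the 10 others (highest adjusted p = 0.164 and 0.166). The calls under a single stimulus in the array-set fit were less firm. Under LPS, Scd2 and Mid1ip1 lost theirs without replicate 1 of GW3965 with LPS or either LPS array (highest adjusted p = 0.321 and 0.107). Fasn probe 233 kept its own only without an array of GW7845 with poly(I:C), and its adjusted p was otherwise up to 0.433. Under poly(I:C), Mid1ip1 lost its call without any of the 4 arrays compared (highest adjusted p = 0.260), and Scd2 without those or any LPS or untreated array (highest adjusted p = 0.723). The pooled fold changes ranged over these fits from 3.59 to 4.06 for Scd2, 1.76 to 2.02 for Fasn probe 233 and 1.57 to 1.92 for Mid1ip1. The 2 arrays of GW7845 with poly(I:C) belong to neither side of the GW3965 comparisons but enter their estimate of spread. Without replicate 1 of them, GW3965 with LPS against LPS was called without the block for Scd2 (limma, adjusted p = 0.00575) and Fasn probe 233 (adjusted p = 0.0448), and GW3965 with poly(I:C) against poly(I:C) for Scd2 (adjusted p = 0.0032). Without replicate 2 the same calls were made (adjusted p = 0.00563, 0.0468 and 0.00347). Without the intensity trend in limma, none of the pooled calls was made in the fit without the block (adjusted p = 0.0767 for Scd2 and 0.139 for Fasn probe 233 and Mid1ip1).

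Of the genes listed as neutrophil markers, S100a8 and Camp were lower with GW3965. Of 7 such markers, 4 were measured (S100a8, Camp, Ltf and Mpo, the last 2 near background). Their summed intensity was 16.8 to 19.8 with GW3965 and LPS, against 30.6 to 46.1 with LPS alone, and 15.9 to 16.0 with GW3965 and poly(I:C), against 23.5 to 50.5 with poly(I:C) alone. The pooled log2 fold change was -1.07 for S100a8 (limma array-set fit, adjusted p = 0.0478) and -1.29 for Camp (adjusted p = 0.0244), and neither was called without the block. Camp also rose with the stimuli alone, by 4.59 with LPS and 4.71 with poly(I:C) against untreated cells. It was the only 1 of 3 tested neutrophil markers called there in either fit. Whether the number of neutrophils differed was not tested. The 9 macrophage markers measured were all below 0, with a median of -0.31 and 0 called in either fit, while the median of all probes was -0.04. The part of these differences in the rise of the lipogenic genes was not tested.

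No difference between the stimuli in the GW3965 response was called for any of the 4 probes. The log2 fold change under poly(I:C) minus that under LPS was 0.24 for Scd2 (95% interval -1.85 to 2.33) and -0.28 for Fasn probe 233 (-1.61 to 1.05). It was -0.02 for Mid1ip1 (-1.26 to 1.22) and -0.35 for Fasn probe 10376 (-2.74 to 2.05). None had an unadjusted p under 0.05 in limma in either fit, and 0% of all probes were called in either, with 29 at an unadjusted p under 0.05 without the block and 274 with it. The intervals are wide, so differences of more than 2-fold between the stimuli remain within them for each of the 4 probes.

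GW7845, the PPARγ agonist, gave no called change in any of the 4 probes. With GW7845 and LPS the log2 intensity of Scd2 was 2.06 and 2.70, against 0.78 and 1.22 with LPS alone. With GW7845 and poly(I:C) it was -1.28 and 1.56, against 0.54 and 1.13 with poly(I:C) alone. Under LPS both GW7845 arrays were therefore above both LPS arrays, while under poly(I:C) they lay on either side of their controls. The log2 fold change of Scd2 was 1.38 (SE 0.69, 95% interval -0.10 to 2.86) under LPS. The unadjusted p of that change was 0.0656 in limma without the block and 0.0474 with it, and the adjusted p was 1 and 0.829. Under poly(I:C) it was -0.69 (SE 0.69, 95% interval -2.17 to 0.79). The low array is the replicate 1 that stood apart, and without it the value was 0.72.

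Fasn probe 233 had 2.33 and 2.53 with GW7845 and LPS, and 0.75 and 2.22 with GW7845 and poly(I:C). Set against the stimulus alone, the log2 fold change was 0.55 (95% interval -0.39 to 1.49) under LPS and -0.79 (95% interval -1.73 to 0.15) under poly(I:C). Replicate 1 of GW7845 with poly(I:C) was again the lowest of the 14 arrays, and without it the value under poly(I:C) was -0.05. Mid1ip1 had 4.0 and 4.32 with GW7845 and LPS, and 3.82 and 3.55 with GW7845 and poly(I:C). Its log2 fold change was 0.12 (95% interval -0.75 to 1.00) under LPS and -0.36 (95% interval -1.24 to 0.51) under poly(I:C), with arrays that overlapped those of the stimulus alone. Fasn probe 10376 had -3.38 and -1.38 with GW7845 and LPS, and -2.97 and -2.45 with GW7845 and poly(I:C), with fold changes of -0.04 and 0.30. Over all probes 0% were called under either stimulus in either fit. At an unadjusted p under 0.05 there were 138 under LPS and 83 under poly(I:C) without the block, and 569 and 362 with it. Pooled over the stimuli, the 4 probes changed by 0.34 (Scd2), -0.12 (Fasn probe 233), -0.12 (Mid1ip1) and 0.13 (Fasn probe 10376), with 0 of 4 called, against 0% of all probes without the block and 0.0104% with it.

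The GW7845 fold change under poly(I:C) minus that under LPS was -2.07 for Scd2 (SE 0.97, 95% interval -4.16 to 0.02) and -1.34 for Fasn probe 233 (SE 0.62, 95% interval -2.67 to -0.01). For Mid1ip1 it was -0.48 (95% interval -1.72 to 0.75), and for Fasn probe 10376 it was 0.34 (95% interval -2.06 to 2.74). None was called in limma, and at an unadjusted p under 0.05 there was 1 of 4 without the block and 2 with it, against 46 and 281 of all probes and 0% called in both fits. Without replicate 1 of GW7845 with poly(I:C), the difference was -0.65 for Scd2, -0.61 for Fasn probe 233, -0.62 for Mid1ip1 and 0.60 for Fasn probe 10376.

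**Figure D2:**
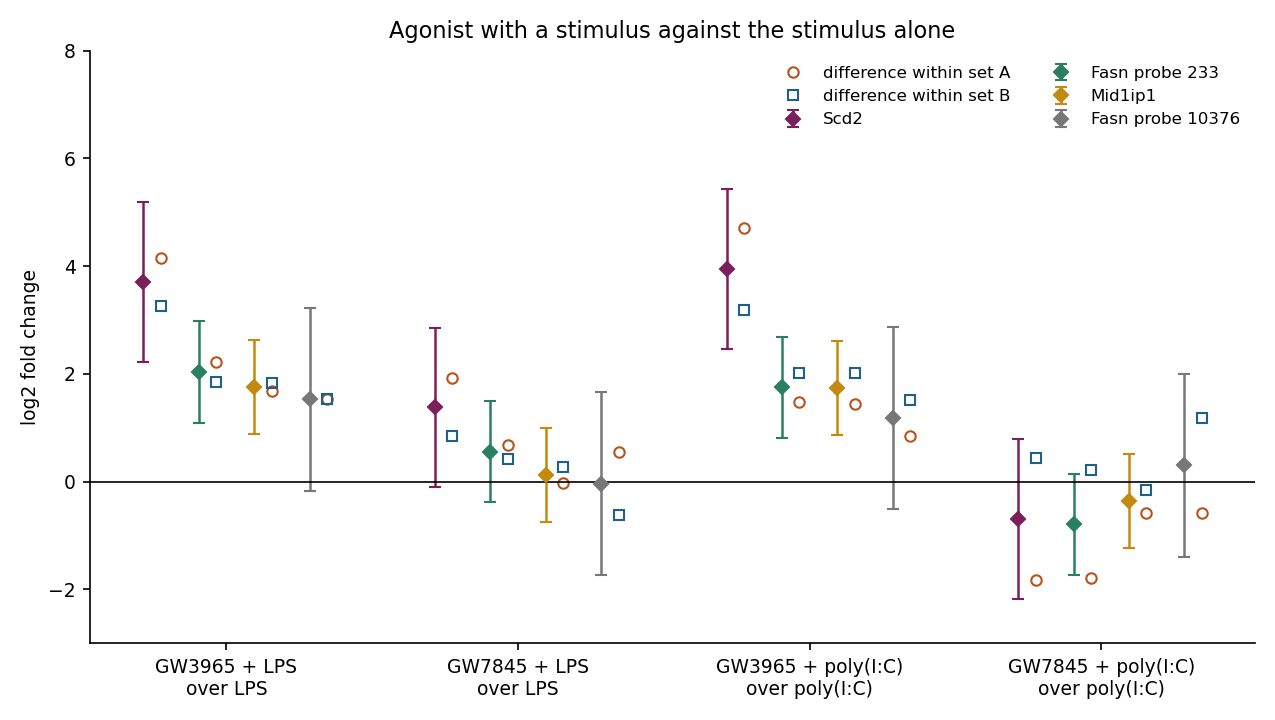
Log2 fold change (vertical axis) of each probe for each agonist with a stimulus over that stimulus alone (horizontal axis). Diamonds are the fitted values with 95% intervals of the limma fit without the block (n = 2 arrays a group), open circles and squares the difference within set A and set B. The Scd2, Fasn probe 233 and Mid1ip1 intervals lie above 0 in both GW3965 comparisons and cover 0 in both GW7845 comparisons.

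The 2 agonists were also set against each other under the same stimulus. With LPS, GW3965 over GW7845 gave a log2 fold change of 2.33 for Scd2 (SE 0.69), 1.48 for Fasn probe 233 (SE 0.44), 1.63 for Mid1ip1 (SE 0.41) and 1.56 for Fasn probe 10376 (SE 0.79). Mid1ip1 was called in the array-set fit (limma, adjusted p = 0.0295), and no other was called in either fit, against 0.0104% of all probes without the block and 0.0626% with it. With poly(I:C) the differences were 4.64 for Scd2 (SE 0.69), 2.54 for Fasn probe 233 (SE 0.44), 2.10 for Mid1ip1 (SE 0.41) and 0.88 for Fasn probe 10376 (SE 0.79). Scd2 was called without the block (adjusted p = 0.0249), and Scd2, Fasn probe 233 and Mid1ip1 in the array-set fit (adjusted p = 0.00614, 0.0199 and 0.00178), against 0.0417% and 0.104% of all probes. Under LPS, the Mid1ip1 call was kept in 7 of the 14 fits that left out 1 array (adjusted p 0.0205 to 0.227). Under poly(I:C), part of the size belonged to the array that stood apart. Without replicate 1 of GW7845 with poly(I:C), the differences were 3.22 for Scd2 (adjusted p = 0.096, and 0.017 in the array-set fit), 1.81 for Fasn probe 233 (array-set fit, 0.092) and 2.23 for Mid1ip1 (array-set fit, 0.026). The GW3965 arrays lay above the GW7845 arrays under both stimuli for Scd2, Mid1ip1 and both Fasn probes, also for probe 10376 near background.

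Mid1ip1 fell with either stimulus alone, as called in the array-set fit. Its log2 intensity was 4.34 and 3.73 with LPS and 4.39 and 3.70 with poly(I:C), against 5.71 and 4.71 without treatment. The stimulated arrays were below both untreated arrays, and the log2 fold change was -1.17 (SE 0.41) for either stimulus. It was called in the array-set fit (limma, adjusted p = 0.00477 for LPS and 0.00445 for poly(I:C)) but not without the block (adjusted p = 0.113 and 0.106). The array-set calls were lost without untreated replicate 1 or replicate 2 of the stimulus (highest adjusted p = 0.0849 for LPS and 0.0805 for poly(I:C)). Scd2 was 0.78 and 1.22 with LPS and 0.54 and 1.13 with poly(I:C), against 1.95 and 2.72 without treatment. Its differences of -1.34 (SE 0.69) for LPS and -1.50 (SE 0.69) for poly(I:C) were not called in either fit (adjusted p = 0.357 and 0.257 without the block, 0.177 and 0.125 with it), although the arrays did not overlap. For Fasn probe 233, at 2.74 and 2.13 without treatment, the differences were -0.56 for LPS and -0.16 for poly(I:C). For Fasn probe 10376, at -3.39 and -3.11 without treatment, they were 0.91 and 0.24. Many other probes moved with the stimuli: 7.8% of all tested probes were called for LPS without the block and 17.8% with it, and 8.86% and 18.7% for poly(I:C). A count of 1 of 4 in the array-set fit is near that share.

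Between poly(I:C) and LPS themselves, the 4 probes differed by -0.17 (Scd2), 0.40 (Fasn probe 233), 0.01 (Mid1ip1) and -0.67 (Fasn probe 10376) on the log2 scale. None was called in limma or had an unadjusted p under 0.05 in either fit, against 0.0104% of all probes called without the block and 0.0209% with it.

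Against untreated cells, the groups with GW3965 stood above the untreated level for Scd2 and Fasn and near it for Mid1ip1. GW3965 with poly(I:C) was above untreated by 2.45 for Scd2 (SE 0.69) and 1.59 for Fasn probe 233 (SE 0.44), called in both fits (limma, adjusted p = 0.0492 and 0.0438 without the block, 0.0157 and 0.0126 with it). GW3965 with LPS was above untreated by 2.37 for Scd2 and 1.48 for Fasn probe 233, called in the array-set fit (adjusted p = 0.0205 and 0.0209) and just missed without the block (adjusted p = 0.0620 and 0.0672). Fasn probe 10376 was above untreated by 2.43 with GW3965 and LPS (array-set fit, adjusted p = 0.00809) and by 1.42, not called, with GW3965 and poly(I:C). Mid1ip1 differed from untreated by 0.58 with GW3965 and LPS (95% interval -0.29 to 1.46) and by 0.57 with GW3965 and poly(I:C) (95% interval -0.30 to 1.44), called in neither fit. In the array-set fit, without 1 array of the groups compared, the highest adjusted p of these calls was 0.218 (Scd2) and 0.165 (Fasn probe 233) for GW3965 with LPS, 0.126 for Fasn probe 10376, and 0.232 (Scd2) and 0.133 (Fasn probe 233) for GW3965 with poly(I:C). Of all probes, 6.06% were called for GW3965 with LPS against untreated without the block and 16.5% with it, and 6.63% and 17.3% for GW3965 with poly(I:C).

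With GW7845 and poly(I:C), Mid1ip1 differed from untreated by -1.53 on the log2 scale (SE 0.41), called in both fits (limma, adjusted p = 0.0331 and 0.00064). Without replicate 1 of that group the value was -1.66, with adjusted p = 0.073 without the block and 0.0093 in the array-set fit. Scd2 differed by -2.19 (SE 0.69), called in the array-set fit (adjusted p = 0.0282), and by -0.78, not called (array-set fit, adjusted p = 0.39), without that array. With GW7845 and LPS, Mid1ip1 was -1.05 from untreated (SE 0.41, array-set fit, adjusted p = 0.0107), while Scd2 was 0.04 and Fasn probe 233 was -0.0039 from it. Of all probes, 6.55% were called for GW7845 with LPS against untreated without the block and 17.6% with it, and 7.54% and 16.6% for GW7845 with poly(I:C).

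Ordered by group mean, Scd2 ran from 4.78 with GW3965 and poly(I:C) and 4.71 with GW3965 and LPS, through 2.38 with GW7845 and LPS and 2.33 untreated, to 1.00 with LPS, 0.83 with poly(I:C) and 0.14 with GW7845 and poly(I:C). The first pair, the second pair and the last 3 could not be ordered beyond the spread of their arrays. The arrays of LPS and of poly(I:C) did not overlap those of untreated cells, but the differences were not called. Mid1ip1 kept the GW3965 groups on top, at 5.79 with LPS and 5.78 with poly(I:C), then 5.21 untreated, whose arrays overlapped those of GW3965 with LPS but not those of GW3965 with poly(I:C), with the other 4 groups from 3.68 to 4.16. Fasn probe 233 had 4.03 with GW3965 and poly(I:C) and 3.91 with GW3965 and LPS, and the other 5 groups lay between 1.48 and 2.44.

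The probes followed each other across the groups. Over the 7 group means, Pearson's r was 0.97 between Scd2 and Fasn probe 233, 0.94 between Scd2 and Mid1ip1 and 0.92 between Fasn probe 233 and Mid1ip1. Over the 14 arrays the same pairs had 0.94, 0.80 and 0.85. Fasn probe 10376 had 0.59 to 0.74 with the other 3 over group means. These are descriptions, since the points share arrays, sets and controls. Among 4673 probes that spanned at least 1 log2 unit over the group means, the 5 most like Scd2 were Fasn probe 233, Cog6, Fhl1, Abcg1 and Slc22a4, with r of 0.96 to 0.97. Over the 14 arrays r was only 0.47 for Fhl1, and 0.81 (Cog6) to 0.96 (Abcg1) for the others. The 5 most like Fasn probe 233 were Abcg1 (0.98), Scd2 (0.97), Ly9 (0.96), Cd5l (0.95) and Cox6a2 (0.95). Over the arrays these had 0.63 for Ly9 and 0.80 (Cox6a2) to 0.96 (Abcg1) for the others. For Mid1ip1 the 5 were Eepd1 (0.97), Abcc3 (0.95), Cd5l (0.94), Scd2 (0.94) and Abcg1 (0.94), with 0.80 (Scd2) to 0.92 (Cd5l) over the arrays. For Fasn probe 10376 the 5 were Chd2, Zc3h11a, Ergic2, Btg2 and Bmpr2, with r of 0.95 to 0.97 over group means but 0.15 to 0.62 over the arrays.

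**Figure D3:**
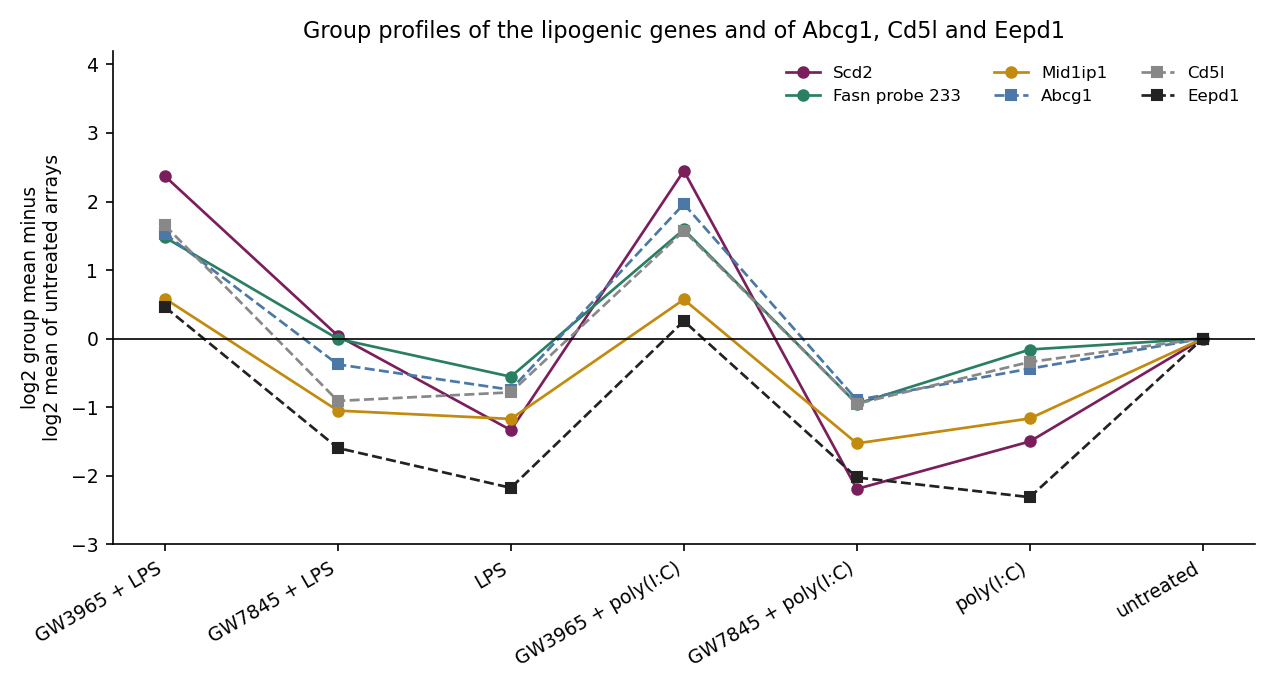
Group means of log2 intensity minus the mean of the untreated arrays (vertical axis) in the 7 groups (horizontal axis), for Scd2, Fasn probe 233 and Mid1ip1 (solid lines) and for Abcg1, Cd5l and Eepd1 (dashed lines). Each point is the mean of 2 arrays, and lines join the points of a gene only to guide the eye. All 6 genes peak in the 2 groups with GW3965, and with LPS these peaks stand at 0.58 for Mid1ip1 and 0.46 for Eepd1, differences from untreated cells that were not called.

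Among other genes of fatty acid synthesis and desaturation, 1 was called with GW3965, in the array-set fit only. Besides the 3 genes, 33 were listed and 20 of them tested. Pooled over the stimuli, their median log2 fold change was 0.26, with 14 of 20 above 0, beside a median of -0.04 over all probes. None was called without the block, and Acsl3 was called in the array-set fit, against 0.198% and 1.15% of all probes. Acsl3, a long-chain acyl-CoA synthetase, had 4.37 and 3.52 with GW3965 and LPS against 2.30 and 2.48 with LPS, and 3.46 and 3.34 with GW3965 and poly(I:C) against 1.90 and 2.28 with poly(I:C). Its arrays did not overlap under either stimulus, and the pooled change was 1.43 (limma, adjusted p = 0.128 without the block and 0.0219 with it).

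Scd1 encodes a close paralog of Scd2. It had log2 intensities of 1.57 and 1.57 with GW3965 and LPS against 1.03 and 0.74 with LPS alone, and 1.18 and 1.60 with GW3965 and poly(I:C) against 1.42 and 0.73 with poly(I:C) alone. The arrays were apart under LPS and overlapped under poly(I:C), and the pooled difference of 0.50 (SE 0.31) was not called (adjusted p = 0.999, and 0.434 in the array-set fit). The probe sequences were not used here, and whether the Scd1 and Scd2 probes detect each other's transcript was not tested. Fads2, the delta-6 desaturase, differed by 1.37 (array-set fit, adjusted p = 0.0686). Me1, a malic enzyme that supplies NADPH, differed by 0.67, and Acly, the ATP citrate lyase that supplies acetyl-CoA, by 0.29. Thrsp, the relative of Mid1ip1, was near background on most arrays and differed by 0.17. None of these 4 was called in either fit. For poly(I:C) against untreated cells, Me1 rose by 1.74 (limma, adjusted p = 0.0355).

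Among the 26 regulators of lipogenic transcription that were listed, 19 were tested and 0 were called with GW3965 over the stimuli in either fit, with a median of -0.03. Srebf1, which encodes SREBP-1, had log2 intensities of -0.86 and -2.87 with GW3965 and LPS, while both LPS arrays and both untreated arrays were at the floor of the scale. The difference was therefore at least 2.00 over either group, with at least 3.0 in set A and 0.99 in set B. The set A value is from replicate 1 of GW3965 with LPS, an array that stood apart. The 20th percentile was -1.40 on that array and -3.07 on the other, so these levels were near background. With GW7845 and LPS, Srebf1 was also above the floor on both arrays, at -3.27 and -2.38. The difference of GW3965 with LPS was called against untreated cells in the array-set fit (limma, adjusted p = 0.0249) and in neither fit against LPS (array-set fit, adjusted p = 0.218). With GW3965 and poly(I:C), 1 array was at -3.20 and the other at the floor, against -2.98 and the floor with poly(I:C) alone. Srebf2, which encodes the SREBP of cholesterol synthesis, differed by 0.11. Nr1h3, which encodes LXRα, had values on set A alone, 1 array a group, at 3.16 with GW3965 and LPS, 3.63 with GW7845 and LPS and 3.93 with LPS. On the other arrays of that set it was 3.38 with GW3965 and poly(I:C), 4.44 with GW7845 and poly(I:C), 3.68 with poly(I:C) and 3.15 untreated. Nr1h2, Acaca, Elovl5, Elovl6, Fads1, Insig1, Insig2 and Lpcat3 had no named probe with values and were not analysed here.

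Of 24 other LXR targets listed, 19 were tested. Pooled over the stimuli, 4 were called without the block and 7 in the array-set fit, all of them higher with GW3965. Of all tested probes, 0.198% were called without the block and 1.15% with it. The list was written with earlier results of these data known, so these counts are descriptions and not independent support. The 4 called without the block were Eepd1, 2.61, Abcg1 and Abca1, the cholesterol exporters, 2.34 and 2.31, and Cd5l, a secreted macrophage protein, 2.18. Tmem86a (1.50), Pltp, a phospholipid transfer protein (1.40), and Lpl, lipoprotein lipase (1.07), were called in the array-set fit only. Not all of these genes peaked with GW3965: Tmem86a was highest in untreated cells, at 4.41 and 4.31, against 2.59 to 3.22 on the arrays with GW3965. The median of the 19 was 0.45. The Scd2 change of 3.83 was larger than that of any of these genes in this comparison, and the Fasn and Mid1ip1 changes lay between those of Cd5l and Tmem86a. A further 3 lists had no calls pooled over the stimuli in either fit: 13 tested genes of cholesterol synthesis and uptake had a median of -0.21 with 4 above 0, 16 of triglyceride and phospholipid synthesis a median of 0.16, and 15 of fatty acid oxidation a median of 0.30. Fabp4, a fatty acid binding protein and PPARγ target, had a pooled difference of -0.85 with GW3965 and 0.27 with GW7845, called in neither fit.

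**Figure D4:**
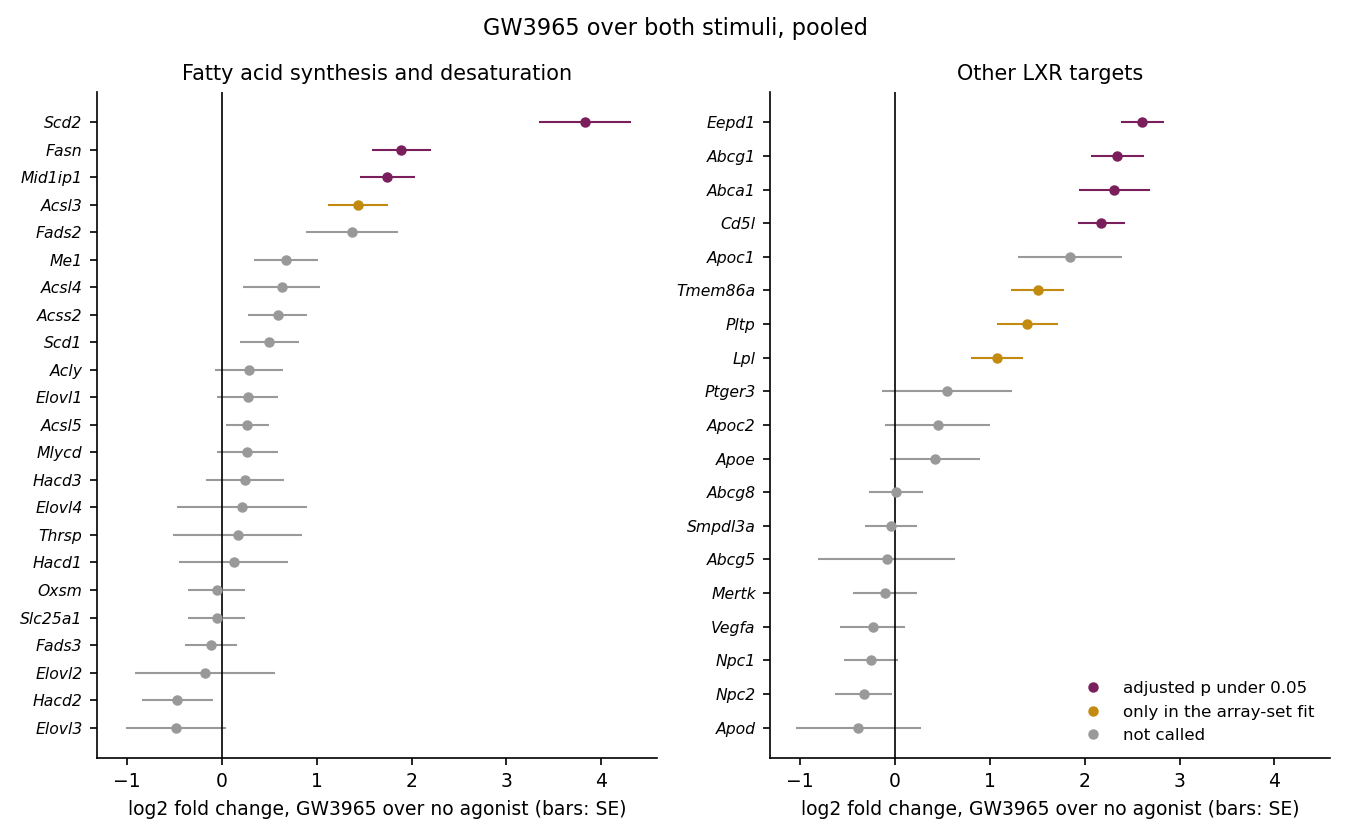
Log2 fold change of GW3965 over no agonist, pooled over both stimuli (horizontal axis, bars SE), for each tested gene of fatty acid synthesis and desaturation and of the other LXR targets (vertical axis). Colour marks genes called without the block, genes called in the array-set fit only and genes not called. Scd2, Fasn (probe 233) and Mid1ip1 head the first list at 3.83, 1.89 and 1.75, and Acsl3 follows at 1.43.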

How the data were processed

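The deposited table holds 1 linear intensity per probe and array, scaled by the authors so that each array's median was 1, as the values show. The sources used here do not name the scanner, the background method or the scaling method. Of 10012 probes, 8983 had 1 gene symbol in the platform table, 1 had several and 1028 had none. Intensities under the 5th percentile of positive values (0.0686, log2 -3.87) were set to it before taking log2. Probes with at least 2 of 14 arrays above their own 20th percentile were tested (9584). Group means were fitted in limma 3.58.1 (R 4.3.3) with an intensity trend, with 7 residual degrees of freedom, or 6 in the array-set fit. The code of the fits was checked on simulated data with independent noise and no array that stood apart, which does not test the results given here. Each group has n = 2 arrays, stated to be biological replicates, so this number limits precision. Array sets were split at the largest gap of the arrays' 10th percentile. A gene with several probes was taken at the probe with the highest mean in the lists, and Fasn is given by both probes. Members and lists were chosen with earlier results of these data known. Genes named were the members, the 5 probes most like each in profile, a list of lipid genes whatever their values, and list genes called in an agonist comparison.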

Additional observations from a re-analysis of the deposited data

How the results depend on the processing

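Counts below are of the 4 probes called (adjusted p under 0.05) and begin with the fit without a block. GW3965 with LPS against LPS gave 0, against 3 with the array set as a block, 1 with the replicate block, 1 after quantile normalization, 3 with only the arrays compared, and 0 to 2 without 1 array. GW3965 with poly(I:C) against poly(I:C) gave 0, against 2 with the set, 1 with the replicate block, 1 after quantile normalization, 1 with only the arrays compared, and 0 to 1 without 1 array. The pooled GW3965 comparison gave 3, against 0 with no intensity trend and 0 to 3 without 1 array. GW3965 against GW7845 gave 0 under LPS (1 with the set, 3 with only the arrays compared), and 1 under poly(I:C) (3 with the set, 3 with the replicate block, 0 with no trend, 0 to 2 without 1 array). LPS against untreated and poly(I:C) against untreated each gave 0, and each gave 1 with the set, the replicate block or quantile normalization, and 0 to 1 without 1 array. GW3965 with LPS against untreated gave 0 (3 with the set, 2 with the replicate block, 2 after quantile normalization, 2 with only the arrays compared, 0 to 2 without 1 array). GW3965 with poly(I:C) against untreated gave 2 (1 after quantile normalization, 0 with no trend, 0 to 2 without 1 array). GW7845 with LPS against untreated gave 0 (1 with the set, 1 after quantile normalization). GW7845 with poly(I:C) against untreated gave 1 (2 with the set, 2 with the replicate block, 0 with no trend, 0 with only the arrays compared, 0 to 2 without 1 array). The cause of these changes was not tested. A fit leaving out 1 array leaves a group with a lone array, assumed to vary like the other groups.

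The array-set fit without 1 array was added after seeing the data. It called 0 to 3 for GW3965 with LPS against LPS, 0 to 3 for GW3965 with poly(I:C) against poly(I:C), 3 to 3 for the pooled comparison, and 0 to 1 for GW7845 with poly(I:C) against poly(I:C). It called 0 to 3 for GW3965 against GW7845 under LPS and 1 to 3 under poly(I:C).

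The replicate numbers of the titles are not stated to mark a shared preparation. The difference between replicates 1 and 2 correlated between groups at 0.354 to 0.674 over the 15 pairs without GW7845 with LPS, and at -0.540 to -0.391 over the 6 pairs with it. Crossing the numbers of that group gives the array-set fit, whose counts stand above.

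Of the 68 fold changes of single probes, 7 were called without a block, and each lost its call under at least 1 alternative. Another 19 gained a call under at least 1 alternative, and 19 changed sign, with no call on either side of the change. After quantile normalization these were Fasn probe 10376 for GW7845 with LPS against LPS (0.071) and poly(I:C) against untreated (-0.18), Mid1ip1 for poly(I:C) against LPS (-0.0792), and Fasn probe 233 for GW7845 with LPS against untreated (0.0792). With the floor at the 10th percentile it was Fasn probe 10376 for GW7845 with LPS against LPS (0.016). The others changed sign when 1 array was left out. For GW7845 with LPS against LPS, Fasn probe 10376 ranged from -1.04 to 0.97 and Mid1ip1 from -0.18 to 0.42. For GW7845 with poly(I:C) against poly(I:C), Scd2 ranged from -2.11 to 0.72 and Fasn probe 10376 from -0.32 to 0.93. For GW7845 pooled, Scd2 ranged from -0.37 to 1.05, Fasn probe 233 from -0.49 to 0.25, Fasn probe 10376 from -0.37 to 0.63 and Mid1ip1 from -0.30 to 0.0536. For poly(I:C) against untreated, Fasn probe 233 ranged from -0.47 to 0.15 and Fasn probe 10376 from -0.39 to 0.87. For poly(I:C) against LPS, Scd2 ranged from -0.46 to 0.13 and Mid1ip1 from -0.34 to 0.36. For GW7845 with LPS against untreated, Scd2 ranged from -0.35 to 0.43, Fasn probe 233 from -0.31 to 0.30 and Fasn probe 10376 from -0.13 to 1.87. For the GW3965 change under poly(I:C) minus that under LPS, Scd2 ranged from -0.23 to 0.71, Fasn probe 10376 from -0.97 to 0.28 and Mid1ip1 from -0.37 to 0.33. For the same difference with GW7845, Fasn probe 10376 ranged from -0.66 to 1.34. Quantile normalization moved the median of all probes for GW7845 with poly(I:C) against untreated to -0.06, against 0.15 as deposited. With 2 arrays a group and no detection calls, signal over background was judged by level alone.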
